A study of Mus musculus with 4 samples.

Results

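The MAPK feedback inhibitors examined here were 10 genes chosen by name, namely the dual-specificity phosphatases Dusp1, Dusp2, Dusp4, Dusp5, Dusp6 and Dusp10, the Sprouty genes Spry1 and Spry2, and the Spred genes Spred1 and Spred2. Of these, 9 had at least 1 probe on the array and no probe was matched to Dusp5, so 9 of the 18539 genes with a named probe were followed, with 11 probes. Of the 9 genes, 8 gave a signal well above background in all conditions and Spred2 did so only in the control cells. The data came from mouse Th2 cells, T helper cells that make the cytokines of allergic inflammation, cultured with or without SH-2251, a small compound with a thioamide group studied as an inhibitor of IL-5 production.

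Splenic CD4 T cells of female C57BL/6J mice were used for all 4 conditions, at 6 to 10 weeks of age according to the methods. The labels name the starting cells as CD4 T cells, whereas the methods describe naïve CD4 T cells. Control cells were stimulated for 2 days with anti-TCR-β antibody (3 μg/ml) and anti-CD28 antibody (1 μg/ml) with the cytokines IL-4 at 10 ng/ml and IL-2 at 2.5 ng/ml, and were then kept for a further 3 days in these cytokines. SH-2251-treated cells received the compound in both phases, for which the labels give 1 μM and then 1 mM, whereas 100 nM is the usual dose in the methods. Resting cells were collected after that culture and restimulated cells after a further 4 h on anti-TCR-β antibody. There was 1 array for each condition, all on 1 slide and read in 1 scan, and the number of mice behind an array is not given in the sources used here. The differences therefore have no replicate check and no test could be made. The technical SD given beside a difference covers error within the arrays only, and for a typical gene (the median) it was 0.204 in log2 units.

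When the T cell receptor is engaged, Ras and the kinase chain of Raf, MEK and ERK are switched on, together with the p38 and JNK branches of the MAPK family. The dual-specificity phosphatases of this group remove the activating phosphates from ERK, p38 and JNK, while Sprouty and Spred proteins hold back the pathway upstream, at Ras and Raf. Many of them are themselves transcribed when ERK is active, so they form a negative feedback loop and their mRNA is often read as a record of recent MAPK signalling. Dusp2 was first found as a phosphatase of activated T cells, and Dusp6 is an ERK phosphatase of the cytoplasm.

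The arrays held 41174 probes, of which 56.0% to 56.7% were well above background, and no spot was saturated. A value below is the log2 signal of the gene's brightest probe minus the 75th percentile of its array, which lay between 499 and 614 intensity units. Values of different probes are not comparable as levels of mRNA, so each gene is compared only with itself. The 6 markers of T and Th2 cells with a probe were above background on all arrays. Their signals, each divided by the array's 75th percentile, summed to 100.05 and 92.5 in resting control and SH-2251-treated cells and 401 and 353 after restimulation. The restimulated sums were carried mostly by the cytokine gene Il4, at log2 values of 8.25 and 8.02 (4.69 and 4.59 in resting cells). This sum is therefore not a measure of the share of T cells. With SH-2251, 6 of the 6 markers lay below 0 in resting cells and 4 in restimulated cells. Their median differences were -0.19 and -0.12, beside -0.06 over all genes in each state. Markers of other cells were also seen. For B cells 4 of 5 markers were above background on all arrays, with Pax5 on none, and the sum was 4.27, 4.92, 3.52 and 5.47 in resting control, resting SH-2251-treated, restimulated control and restimulated SH-2251-treated cells. For CD8 T and NK cells 2 of 4 were above background on all arrays, with Klrb1c and Ncr1 on none, and the sum was 0.299, 0.453, 0.318 and 0.535 in the same order. Myeloid markers summed to between 2.66 and 3.19, with 4 of 6 above background on all arrays and Lyz2 and Itgam on none. The haemoglobin gene Hba-a1, a red cell marker, had log2 values of -1.70, -0.55, -2.26 and -0.98 in that order, a difference with SH-2251 of 1.15 in resting and 1.28 in restimulated cells. The sums for B cells and for CD8 T and NK cells and the Hba-a1 signal were therefore higher with SH-2251 in either state, and their part in the differences given below was not tested. Fewer cells of a type and less RNA per cell cannot be told apart in such bulk samples.

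Restimulation gave the widest differences among the inhibitors. In control cells 3 of the 9 genes, Dusp4, Dusp2 and Spry1, were at least 2-fold higher after 4 h (7.20% of the 12757 genes compared were) and none was at least 2-fold lower (7.34% of all genes). In SH-2251-treated cells the same 3 genes were at least 2-fold higher among 8 compared (7.09% of 12613 genes), and again none was 2-fold lower (6.98%). The median difference of the inhibitors was 0.56 in control cells and 0.52 in SH-2251-treated cells, beside -0.06 and -0.05 over all genes.

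**Figure D1:**
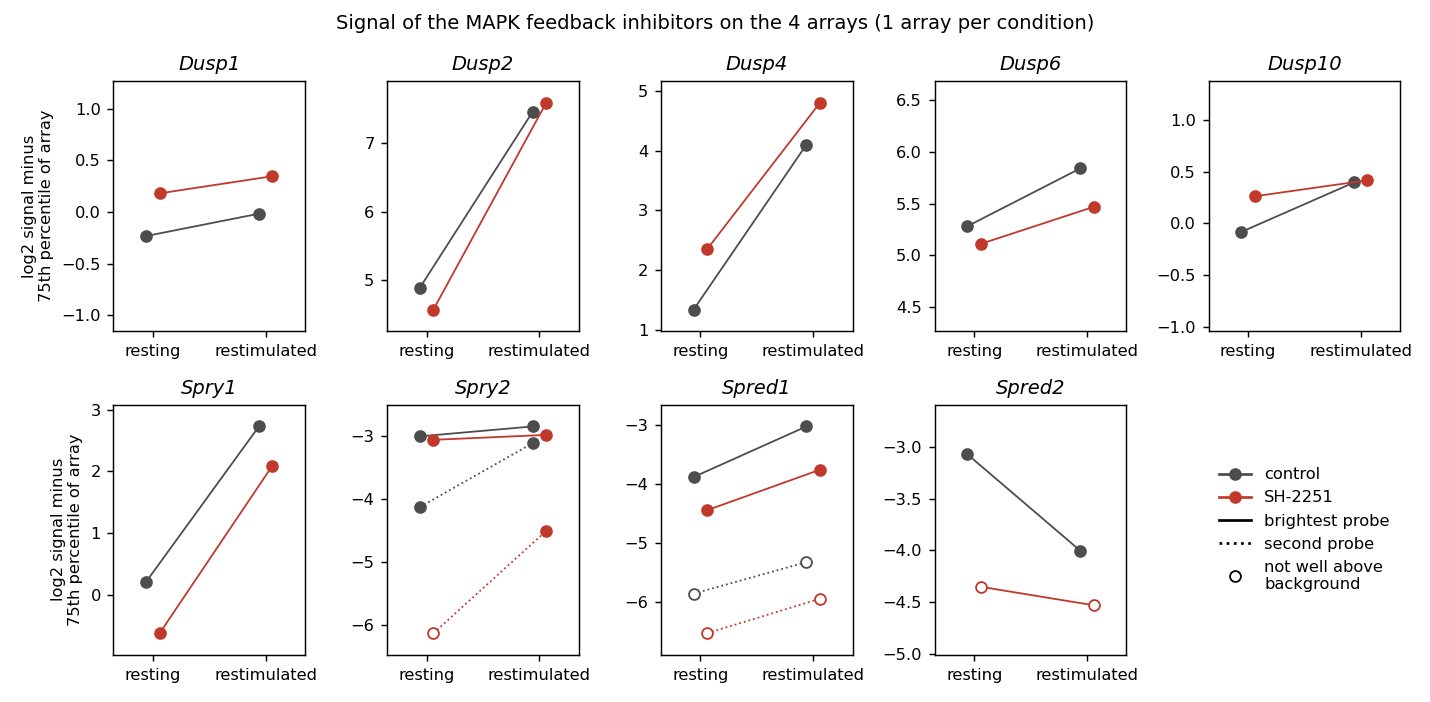
Log2 signal minus the 75th percentile of the array (vertical axis, scale differing between genes) for the 9 inhibitors with a probe, in resting and restimulated cells (horizontal axis), with 1 array per condition. Dusp2, Dusp4 and Spry1 are far higher after restimulation in both control (grey) and SH-2251-treated cells (red), Dusp4 lies above and Spry1 below the control in both states, and the open symbols of Spred2 and of second probes are not well above background.

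Dusp2 encodes a nuclear phosphatase of ERK and p38. Its log2 value was 4.89 in resting control cells, 4.57 in resting SH-2251-treated cells, 7.46 in restimulated control cells and 7.59 in restimulated SH-2251-treated cells. Both restimulated values lay above both resting values. The difference on restimulation was 2.57 ± 0.20 (technical SD) in control cells, or 5.93-fold, and 3.02 ± 0.20 in SH-2251-treated cells, or 8.10-fold. These were ranks 97 and 80 among the increases of all genes measured on both arrays of the pair.

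Dusp4 encodes a nuclear phosphatase of ERK and JNK. Its log2 value was 1.34 in resting control cells, 2.35 in resting SH-2251-treated cells, 4.10 in restimulated control cells and 4.80 in restimulated SH-2251-treated cells, which are intensities of 1420, 3136, 8566 and 16248 units. The order was the same in both states, with the SH-2251-treated cells above the control cells. On restimulation it was 6.78-fold higher in control cells (log2 difference 2.76 ± 0.20, rank 80) and 5.46-fold higher in SH-2251-treated cells (2.45 ± 0.20, rank 129).

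Spry1 encodes a Sprouty protein that is known to restrain signalling from the T cell receptor. Its log2 value was 0.21 in resting control cells, -0.63 in resting SH-2251-treated cells, 2.73 in restimulated control cells and 2.09 in restimulated SH-2251-treated cells. The corresponding intensities were 649, 398, 3312 and 2488 units, so the SH-2251-treated cells lay below the control cells in either state. Restimulation was accompanied by a 5.74-fold higher signal in control cells (2.52 ± 0.20, rank 104) and a 6.59-fold higher signal in SH-2251-treated cells (2.72 ± 0.20).

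The windows of 250 bases before the transcription start are shown for Dusp2 and Spry1, which were among the genes with the widest differences on restimulation, and for Dusp1, whose signal differed little and whose window holds a full cyclic AMP response element. They are RefSeq sequences of build GRCm38.p6, in the direction of the gene, at chr2:127335909-127336158 (plus strand) for Dusp2, chr3:37639697-37639946 (plus strand) for Spry1 and chr17:26508473-26508722 (minus strand) for Dusp1. Capitals mark matches to the CArG box bound by serum response factor, the cyclic AMP response element TGACGTCA, its short form TGACG, the AP-1 site TGANTCA and the EGR sites GCGGGGGCG and GCGTGGGCG, searched on both strands. The full response element contains the short form.
Dusp2: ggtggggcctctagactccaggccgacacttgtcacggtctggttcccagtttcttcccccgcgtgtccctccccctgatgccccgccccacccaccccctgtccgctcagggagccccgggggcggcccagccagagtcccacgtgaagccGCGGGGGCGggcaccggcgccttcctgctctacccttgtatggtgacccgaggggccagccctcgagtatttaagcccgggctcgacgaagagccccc
Spry1: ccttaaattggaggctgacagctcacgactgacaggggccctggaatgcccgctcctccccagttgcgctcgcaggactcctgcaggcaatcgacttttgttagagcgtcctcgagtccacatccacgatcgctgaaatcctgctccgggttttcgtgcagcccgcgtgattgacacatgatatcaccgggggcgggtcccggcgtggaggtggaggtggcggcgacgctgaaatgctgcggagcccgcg
Dusp1: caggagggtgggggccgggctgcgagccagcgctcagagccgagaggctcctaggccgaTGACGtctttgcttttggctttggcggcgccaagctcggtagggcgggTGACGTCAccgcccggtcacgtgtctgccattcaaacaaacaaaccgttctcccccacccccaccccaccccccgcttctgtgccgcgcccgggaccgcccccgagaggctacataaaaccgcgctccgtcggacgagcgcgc
The Dusp2 window holds 1 EGR site beginning 98 bases before the start, and the Spry1 window holds none of the marked motifs. The Dusp1 window holds a full cyclic AMP response element beginning 143 bases before the start and a separate short form at 191. No promoter of Dusp4 was matched in the table, so windows of 9 of the 10 genes were searched. Of these, 1 held the EGR site GCGGGGGCG (2.57% of all 32851 windows), 1 the full response element (1.55%), 3 the short form (17.8%) and 1, that of Dusp5, the CArG box (1.47%). None held the AP-1 site (6.75%), the EGR site GCGTGGGCG (0.536%) or the ETS core CCGGAA (12.0%), and 5 held the NFAT core GGAAA (55.6%). Dusp2 and Spry1 shared no searched motif, and a match, or its absence, is a description of letters only.

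The remaining phosphatases gave smaller differences on restimulation. Dusp6, the cytoplasmic ERK phosphatase, had log2 values of 5.28 in resting control, 5.11 in resting SH-2251-treated, 5.84 in restimulated control and 5.47 in restimulated SH-2251-treated cells. Both restimulated values were above both resting values, by 0.56 ± 0.20 within the control cells and 0.36 ± 0.20 within the SH-2251-treated cells. Dusp10, a phosphatase of p38 and JNK, stood at -0.08, 0.26, 0.39 and 0.42 in the same order, a difference on restimulation of 0.48 ± 0.21 in control cells and 0.15 ± 0.20 in SH-2251-treated cells. Only the resting control array lay apart from the other 3 for Dusp10. Dusp1, an early response gene whose nuclear phosphatase acts on p38, JNK and ERK, stood at -0.23, 0.18, -0.02 and 0.35, so that its differences on restimulation were 0.22 ± 0.20 and 0.17 ± 0.20. For Dusp1 the values were ordered by treatment and not by restimulation, with both SH-2251-treated arrays above both control arrays.

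Spred1 encodes a membrane protein that keeps Ras inactive together with neurofibromin. Its signal was close to background, at log2 values of -3.87 in resting control, -4.44 in resting SH-2251-treated, -3.02 in restimulated control and -3.75 in restimulated SH-2251-treated cells. It was 1.81-fold higher on restimulation in control cells (0.86 ± 0.28) and 1.61-fold higher in SH-2251-treated cells (0.69 ± 0.36). With the normexp background correction these differences were 0.39 and -0.86, so that the direction in SH-2251-treated cells turned. Spred2, a related Ras inhibitor, was the gene that went the other way. Its log2 value was -3.07 in resting and -4.00 in restimulated control cells, a difference of -0.93 ± 0.34, and its SH-2251-treated arrays were not well above background.

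Spry2, the other Sprouty gene of the group, had probes that disagreed. With the brighter probe its log2 values were -3.00 in resting control, -3.06 in resting SH-2251-treated, -2.84 in restimulated control and -2.98 in restimulated SH-2251-treated cells, and no difference exceeded its technical SD. The dimmer probe read -4.12, -6.13, -3.11 and -4.50 in the same order, and the second of these was not well above background. By that probe Spry2 was 2.02-fold higher on restimulation in control cells (1.02 ± 0.31). It was also 2.63-fold lower with SH-2251 in restimulated cells (-1.40 ± 0.36). Counts and medians of the group use the brighter probe for Spry2. By the dimmer probe Spry2 would pass 2-fold on restimulation of control cells and with SH-2251 in restimulated cells. The values of each probe are therefore given, and Spry2 as a gene is left undecided.

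**Figure D2:**
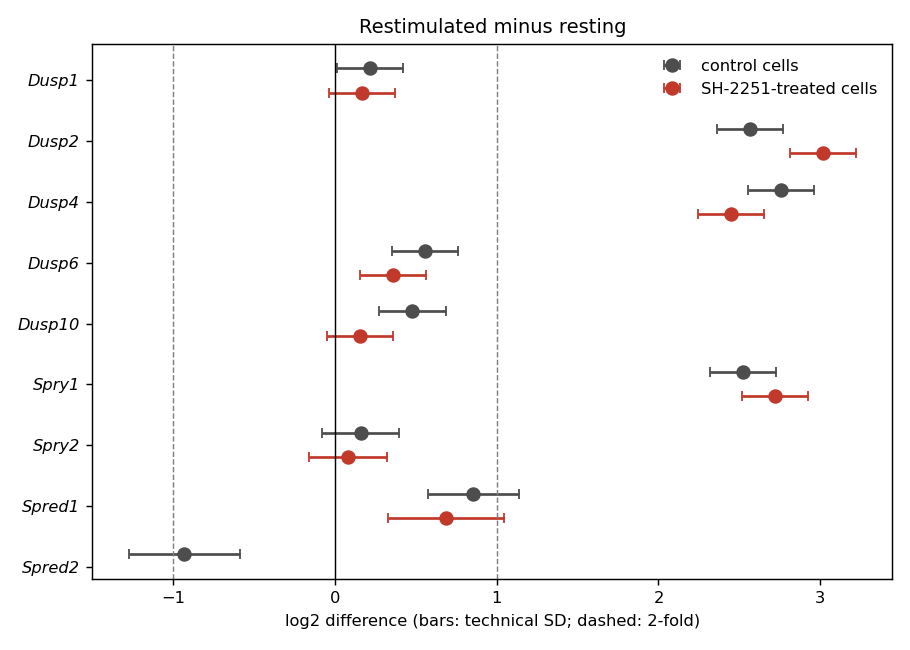
Restimulated minus resting log2 difference (horizontal axis) for each inhibitor (vertical axis) in control (grey) and SH-2251-treated cells (red), with bars for the technical SD and dashed lines at 2-fold. Dusp2, Dusp4 and Spry1 lie between 2.45 and 3.02 in both treatments, the others lie within 2-fold, and Spred2 has a value in control cells only.

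The comparison of SH-2251 with control asked how the compound left these inhibitors in Th2 cells. In resting cells Dusp4 was the only one of 9 genes at least 2-fold higher (2.22% of the 12683 genes compared were) and Spred2 the only one at least 2-fold lower (2.90% of all genes). In restimulated cells none was 2-fold higher (2.65% of 12622 genes) or 2-fold lower (2.78%) by its brightest probe. By its dimmer probe Spry2 was past 2-fold lower there. The median difference of the inhibitors was -0.17 in resting and -0.13 in restimulated cells, beside -0.06 over all genes in each state. With the mean of all probes these medians of the inhibitors were -0.29 and -0.37. The B cell marker sum, the CD8 T and NK cell marker sum and the Hba-a1 signal given above were also higher with SH-2251 in both states. With the normexp background correction, the resting median of the inhibitors was 0.25 and neither Dusp4 nor Spred2 passed 2-fold. With spots of uneven local background left out before normexp, that median was -0.17 and again neither passed 2-fold.

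In resting cells SH-2251 went with a 2.02-fold higher Dusp4 signal (1.01 ± 0.20), rank 196 among 11874 genes ordered by increase, and in restimulated cells with a 1.63-fold higher signal (0.70 ± 0.20, rank 515). The resting value lay at the 2-fold limit, and it was 0.75 with the normexp correction. Dusp1 was also higher in both states, by 0.41 ± 0.20 and 0.36 ± 0.20. Dusp10 was higher by 0.35 ± 0.20 in resting cells, whereas the restimulated difference of 0.02 ± 0.20 was within the technical SD. For Dusp2 the resting difference was -0.32 ± 0.20 and the restimulated one 0.13 ± 0.20. Dusp6 was lower by a log2 difference of -0.17 ± 0.20 and -0.37 ± 0.20, of which the resting difference did not exceed its technical SD.

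Spry1, Spred1 and Spred2 were lower with SH-2251. Spry1 had 56.1% of the control signal in resting SH-2251-treated cells (-0.83 ± 0.20) and 64.4% in restimulated cells (-0.64 ± 0.20). Spred1 had 67.7% in resting cells (-0.56 ± 0.37) and 60.2% in restimulated cells (-0.73 ± 0.27). Spred2 was 2.43-fold lower in resting and 1.44-fold lower in restimulated SH-2251-treated cells, where the treated arrays were not well above background. A dim array took either its measured signal or the faintest signal that counted as well above background there, whichever was larger. For Spred2 the measured signal was the larger in both states, so its values are not lower limits. Where the faintest signal was used, a difference is given below as at least that size. The Spred1 and Spred2 differences rest on signals near background, and with the normexp correction the resting value of Spred1 was 0.82 and that of Spred2 was 0.00. A difference with a dim array was not allowed to change sign. The 0.00 of Spred2 is therefore the limit of that rule and not a measured absence of difference.

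**Figure D3:**
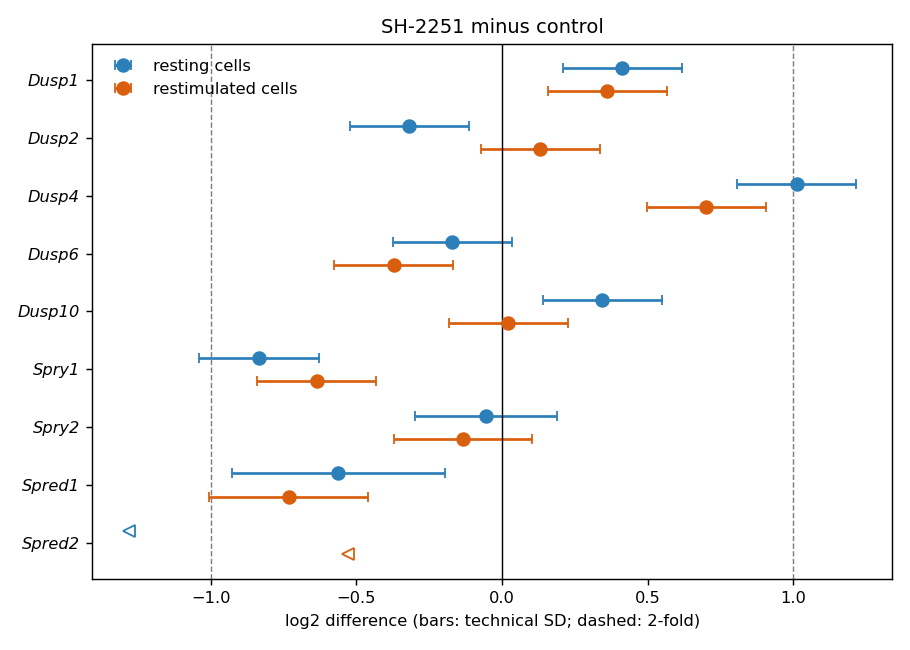
SH-2251 minus control log2 difference (horizontal axis) for each inhibitor (vertical axis) in resting (blue) and restimulated cells (orange), with bars for the technical SD and dashed lines at 2-fold. Open triangles mark Spred2, whose SH-2251-treated arrays were not well above background. Dusp4 is highest at 1.01 and 0.70, Dusp1 is above 0 in both states, and Spry1, Spred1 and Spred2 are below 0 in both.

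The restimulation and SH-2251 comparisons share arrays, so their values are not independent. Whether the response to restimulation differed with SH-2251 was read from the difference between the 2 responses, which could be formed for the 8 genes measured on all arrays. It was 0.45 ± 0.29 for Dusp2, -0.31 ± 0.29 for Dusp4 and -0.32 ± 0.29 for Dusp10, and for the other 5 genes it was within the technical SD. No inhibitor reached a 2-fold difference between responses, a size met by 140 of the 11518 genes measured on all arrays (1.22%). With the normexp correction it was -1.25 for Spred1, past 2-fold, and -0.0145 for Dusp4. The difference with SH-2251 had the same direction in both states for 7 of the 8 genes, with Dusp2 as the exception, and for 77.1% of the 11518 genes. This held for 6 of the 8 with median centring and for 4 of the 8 with the normexp correction. With spots of uneven local background left out before normexp, it held for 6 of the 8.

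The genes whose pattern over the 4 arrays was most like that of an inhibitor were found by the mean absolute difference between their log2 values after each gene was centred on its own mean. For Dusp2 they were Pdcd1lg2 at 0.0375, the PD-1 ligand PD-L2, Prag1 at 0.0575 and Smim3 at 0.0652. For Dusp4 they were Serpinb9 at 0.157, a granzyme B inhibitor, Tgif1 at 0.163 and Gadd45a at 0.167. For Spry1 they were Myo10 at 0.146, Sh2d5 at 0.156 and Nrp1 at 0.160, the neuropilin receptor. For Spred1 they were Elmo2 at 0.0202, Gart at 0.0267 and Gprc5a at 0.0494. With 4 arrays, such closeness is a description.

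The relatives left out of the group were 7 further MAPK phosphatases, Sproutys and Spreds. With SH-2251, 3 of the 6 compared were at least 2-fold lower in resting cells (Spry4, Dusp9 and Dusp16, beside 2.90% of all genes) and none was higher (2.22%). In restimulated cells none of 5 was 2-fold lower (2.78% of all genes) or higher (2.65%). Their median difference was -0.89 and -0.25, and with the normexp correction the resting median was 0.10 and none passed 2-fold. With spots of uneven local background left out before normexp, the resting median was -0.37 and again none passed 2-fold. Dusp16, a JNK and p38 phosphatase, had log2 values of -2.77 in resting control, -3.83 in resting SH-2251-treated, -1.34 in restimulated control and -2.13 in restimulated SH-2251-treated cells. It was lower with SH-2251 in either state (-1.05 ± 0.27 and -0.79 ± 0.21) and 2.70-fold and 3.24-fold higher on restimulation in control and SH-2251-treated cells. With the normexp correction the restimulation differences of Dusp16 were 0.98 and -0.04, neither past 2-fold.

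Dusp9, an ERK phosphatase, stood at -2.27, -3.57, -3.30 and -4.28 in the same order. It was lower with SH-2251 by a log2 difference of -1.30 ± 0.26 in resting and -0.97 ± 0.33 in restimulated cells, whereas its second probe gave -0.71 and -0.24. On restimulation of control cells Dusp9 was 2.05-fold lower by the first probe and 1.29-fold lower by the second, and the difference was -0.44 with the normexp correction. Spry4 was well above background on the resting control array alone, from which the SH-2251-treated resting array was at least 2.51-fold lower, and Spry3 was above background on none. Dusp7, a cytoplasmic ERK phosphatase, and Dusp8, a phosphatase of p38 and JNK, differed by at most 0.13 from the control with SH-2251 in both states by their brightest probes. Spred3 had 60.8% of the control signal in resting SH-2251-treated cells (-0.72 ± 0.38) and 84.2% in restimulated cells (-0.25 ± 0.29).

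**Figure D4:**
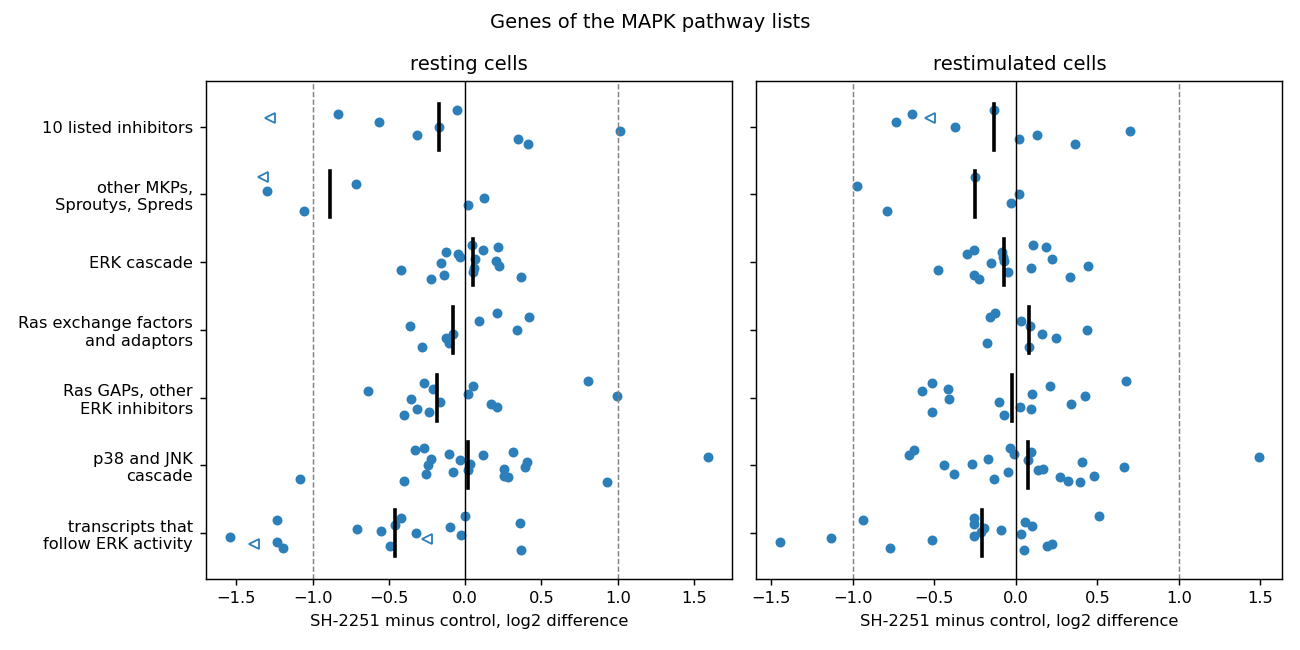
SH-2251 minus control log2 difference (horizontal axes) for genes of 7 MAPK lists (vertical axis) in resting (left) and restimulated cells (right). A circle is a gene measured on both arrays and an open triangle a gene not well above background on an array of the pair. A black bar lies at the list median and dashed lines at 2-fold. The median of the transcripts that follow ERK activity is -0.46 in resting cells and -0.20 in restimulated cells. The ERK cascade lies within 2-fold throughout, where 2.22% to 2.90% of all genes passed 2-fold in a given direction.

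The inhibitors act on a pathway whose other genes are given for comparison. Among 16 genes of the ERK cascade, which include the Raf, MEK and ERK kinases, none was 2-fold different with SH-2251 in either state, and the medians were 0.05 and -0.07. None of 9 Ras exchange factors and adaptors and none of 14 Ras GTPase activating proteins and other ERK inhibitors passed 2-fold with SH-2251 either. On restimulation, the kinase gene Rps6ka3 was 5.04-fold higher in control and 3.89-fold higher in SH-2251-treated cells, and the scaffold gene Ksr1 was the only other gene of the ERK cascade past 2-fold (1.22 and 1.16, and 0.95 and 0.21 with the normexp correction). The exchange factor gene Rasgrp2 was lower on restimulation (-1.48 ± 0.26 for the control and -1.38 ± 0.23 for the SH-2251-treated cells), and Lcp2, the gene of the adaptor SLP-76, was higher (1.63 ± 0.20 and 2.00 ± 0.20). The exchange factor gene Sos1 was higher by 1.47 ± 0.21 and 0.90 ± 0.21 for these, whereas its dimmer probe gave -0.22 and -0.13. Among the inhibitors of Ras and ERK, Rasa3 was 2.66-fold and 2.55-fold lower and Errfi1 3.02-fold and 2.67-fold higher in control and SH-2251-treated cells. Rasal1 (1.14 and 0.93) and Rasa2 (0.98 and 1.06) were close to 2-fold higher in both treatments, and these differences between treatments were within the technical SD. Of the 10 other dual-specificity phosphatases compared, none passed 2-fold with SH-2251 in resting cells, again near the share over all genes. In restimulated cells Dusp23 alone was at the limit, at -1.01 (2.78% of all genes were 2-fold lower). Median centring (-0.97), quantile scaling (-0.95) and the normexp correction (-0.51) brought Dusp23 within 2-fold. On restimulation of control and of SH-2251-treated cells Dusp28 was at -0.84 and -1.13 and Dusp3 at 0.92 and 1.08, of which the last was -0.47 with the normexp correction.

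In the p38 and JNK branch, Mapk13, the gene of p38δ, had a signal 3.01 times that of the control in resting SH-2251-treated cells (1.59 ± 0.21) and 2.81 times in restimulated ones (1.49 ± 0.21). Gadd45g, of a family that activates the upstream kinase MEKK4, was lower in resting SH-2251-treated cells (-1.08 ± 0.20) and close to the control in restimulated cells (-0.13 ± 0.20). These were the only genes of 21 past 2-fold with SH-2251 in either state, and with quantile scaling Gadd45g was at -0.96, within 2-fold. At rest, 1 of 21 was therefore lower (2.90% of all genes) and 1 higher (2.22%). After the 4 h on antibody, 0 of 21 were lower (2.78%) and 1 was higher (2.65%). On restimulation 4 of 21 were 2-fold higher in control cells (7.20% of all genes) and 6 of 21 in SH-2251-treated cells (7.09%), led by Gadd45b at 2.83 ± 0.20 and 3.55 ± 0.20. Map3k4, the gene of MEKK4 itself, was lower (-1.18 ± 0.20 and -1.38 ± 0.20), and Map2k6 was at -0.99 ± 0.20 and -1.11 ± 0.20 by its brightest probe, but at 0.04 in SH-2251-treated cells with the mean of its probes.

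The transcripts known to follow ERK activity, a list of 19 genes that holds immediate early transcription factors and their partners, were read beside their inhibitors. In resting SH-2251-treated cells 5 of 17 compared were at least 2-fold lower (2.90% of all genes) and none was higher (2.22%), and 15 of 17 lay below 0, with a median of -0.46 beside -0.06 over all genes. They were Fosl1 (-1.54 ± 0.25), Phlda1 (-1.23 ± 0.20), Fos (-1.23 ± 0.21), Egr2 (-1.19 ± 0.21) and Etv5, 2.61-fold lower. The treated Etv5 signal was not well above background and was used as measured. Fos was named after its value was seen. In restimulated cells 2 of 18, Etv5 (-1.45 ± 0.32) and Fosb (-1.13 ± 0.24), were at least 2-fold lower (2.78% of all genes) and none was higher (2.65%). Of the 18, 11 lay below 0 and 7 above, with a median of -0.20 beside -0.06 over all genes. With the normexp correction the resting median was -0.35 and 1 gene passed 2-fold, and in restimulated cells 0 of 18 did. With spots of uneven local background left out before normexp, the resting median was -0.40 and 3 of 17 genes were 2-fold lower.

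On restimulation 17 of 18 transcripts of the list lay above 0 in each treatment, and Mcl1 was lower in both (-0.67 and -0.47). At least 2-fold higher were 9 of 18 in control cells (7.20% of all genes) and 11 of 18 in SH-2251-treated cells (7.09%). The zinc finger factor gene Egr2 had log2 values of 0.61 in resting control, -0.58 in resting SH-2251-treated, 4.83 in restimulated control and 4.05 in restimulated SH-2251-treated cells. Its relative Egr1 was 15.9-fold higher on restimulation in control and 12.8-fold higher in SH-2251-treated cells. The median of the list was 1.05 in control cells and 1.20 in SH-2251-treated cells, and no gene of it was 2-fold lower.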

How the data were processed

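Gene expression was measured with 1 single-dye Agilent mouse array for each of 4 conditions, to which samples were assigned from their labels. The authors deposited the scanner's processed intensities, corrected for background by Feature Extraction 10.7.3.1 per the file headers, and a table of log2 values, which are these intensities on the log2 scale minus each array's 75th percentile to within 0.01 for 99.6% to 99.7% of values. Here that scaling was computed from the intensities, without control spots and 77 to 106 outlier spots per array. Spots of a probe were averaged, and the probe with the highest mean signal stood for a gene. Of 41174 probes, 27198 were named by RefSeq accession (GRCm38.p6 gene table, used for names). A gene entered a pair if it was well above background on at least 1 array. With 1 array per condition, a size of 2-fold was used in place of a test.

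The inhibitors and gene lists were chosen with earlier results of these data known. All 10 inhibitors and the 7 relatives are described. From each other list, up to 2 genes with the largest decrease and up to 2 with the largest increase in a pair are named, if past 2-fold and measured on both arrays. For inhibitors above background on all arrays whose values span at least 1, the 3 genes of most similar pattern are named. Alternatives were median centring, quantile scaling, the deposited table, normexp correction (limma 3.58.1, offset 50, on median spot signals), other filters, the mean of probes and thresholds of 1.5 and 3. The procedure was tested on simulated data. The summed level of a further list, of red cell markers, is not reported here. Python 3.11.15, numpy 2.4.6, pandas 2.3.3, matplotlib 3.10.9 and R 4.3.3 were used.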

Additional observations from a re-analysis of the deposited data

Results flagged for a closer look

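Among the genes of the MAPK lists, 2 differed with SH-2251 in opposite directions in the 2 states, each beyond its technical SD. The ETS factor gene Etv4, named after its values were seen, was at -0.49 in resting and 0.22 in restimulated cells, a gap of 0.71 on the log2 scale. Gadd45b was at -0.40 in resting and 0.32 in restimulated cells, a gap of 0.72. With 1 array per condition these differences between the states were not tested. No inhibitor of the group did so in the values of the report, whereas with the normexp correction Spred1 was at 0.82 and -0.43. With that correction Etv4 was at 0.40 and 0.09.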

How the results depend on the processing

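Of 43 values of the inhibitors, 36 kept 1 sign under the alternatives that could be run for them. The Spred2 differences with SH-2251 are counted among these, but the rule for dim arrays did not allow their sign to turn. The Spred2 value of 0.00 given below is the limit of that rule. Median centring, quantile scaling, the deposited table, outlier spots kept and no filter on low signals moved no value beyond its technical SD and no count by over 1.5 times. The normexp correction moved the most, and the cause was not tested. Over all 12683 genes compared in resting cells, it put 702 at least 2-fold higher with SH-2251 and 162 lower, beside 282 and 368 without it. On restimulation of SH-2251-treated cells it put 1520 of 12613 genes at least 2-fold lower, beside 881 without it. With it no inhibitor was 2-fold lower (0) or higher (0) with SH-2251 in resting cells, where Dusp2 was at -0.61, Dusp4 at 0.75, Dusp6 at -0.46, Spry1 at -0.57, Spry2 at 0.72, Spred1 at 0.82 and Spred2 at 0.00. Spred1 was at -0.43 with SH-2251 in restimulated cells, and on restimulation of control cells Spred1 was at 0.39 and Spred2 at -0.28. On restimulation of SH-2251-treated cells Dusp2 was at 3.33, Dusp4 at 2.68, Dusp6 at 0.66, Spry1 at 2.29, Spry2 at -0.68 and Spred1 at -0.86. The differences between responses were 0.74 for Dusp2, -0.0145 for Dusp4, -0.85 for Spry2 and -1.25 for Spred1. Leaving out spots of uneven local background before normexp, an alternative chosen after seeing the data, again gave 0 lower and 0 higher in resting cells, with Spred2 at -0.44. Over all genes, 185 of 12678 were then lower and 123 higher in resting cells. On restimulation of SH-2251-treated cells 442 of 12609 genes were lower. The resting medians with SH-2251 were -0.17 for the inhibitors and -0.37 for their relatives. This alternative gave Spred1 at -0.43 with SH-2251 in restimulated cells. On restimulation of control cells it gave Spred1 at 0.39 and Spred2 at -0.28. On restimulation of SH-2251-treated cells it gave Spry1 at 2.41 and Spred1 at 0.18.

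With both arrays of a pair required above background, 0 inhibitors were 2-fold lower in resting cells (273 of 11874 genes were), since Spred2 was not compared. With the mean of all probes Spry2 was at -0.76 with SH-2251 in restimulated cells and 0.59 on restimulation of control cells. At 1.5-fold, 2 were lower with SH-2251 in resting cells, 2 lower and 1 higher in restimulated cells, and 1 lower on restimulation of control cells. At 3-fold, 0 were lower and 0 higher in resting cells. The share of all genes was not computed at 1.5-fold or 3-fold, so these counts cannot be set against it. No paired analysis was possible because each condition has 1 array, and no array could be left out for the same reason. Signals near background limit the values of Spry2, Spred1 and Spred2.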
